A study of Homo sapiens with 66 samples.

Results

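The sites described here are 809 places in the genome of HKC-8 cells, a human renal tubular epithelial line, where HIF-2α was called and HIF-1α was not, and where the DNA at the centre holds a hypoxia response element (HRE) core but no AP-1 motif. They were chosen by peak calls in wild-type (WT) HKC-8 cells after 16 h in 0.5% oxygen. Peaks of both WT HIF-2α lists were merged where they overlapped, which gave 3805 sites, and 2369 of these overlapped no peak of either WT HIF-1α list (HIF-2-only sites). The WT HIF-1α lists held 1913 and 1535 peaks, and the WT HIF-2α lists 4537 and 6749. A missing HIF-1α peak may thus reflect a shorter list, and HIF-2-only is a label of calls. Of the 2367 HIF-2-only sites on chromosomes 1 to 22, X and Y, 809 had the 5 bp core ACGTG or GCGTG on either strand within 100 bp of the centre and no TGACTCA or TGAGTCA heptamer (AP-1) there. A further 398 had AP-1, 191 of them with an HRE core as well, and 1160 had neither motif. The HIF-2α and HIF-1α calls of these 4 WT libraries are therefore the measured values that chose the members, and they are not results.

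HIF is a dimer. Either of the oxygen-regulated subunits HIF-1α and HIF-2α pairs with the constitutive partner HIF-1β (ARNT), and the pair reads the HRE core. In normal oxygen the α subunits are hydroxylated, recognised by the VHL ubiquitin ligase and destroyed, and in hypoxia they accumulate. Both isoforms recognise the same core in vitro, and in renal epithelium HIF-2α is known above all as the isoform that drives clear cell carcinoma once VHL is lost. AP-1, the dimer of FOS and JUN proteins, binds many open distal elements.

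The series maps HIF-1α, HIF-2α and HIF-1β by chromatin immunoprecipitation and sequencing (ChIP-seq), with 50 peak lists in 25 groups of 2 libraries. For severity and duration, HKC-8 cells were exposed to 0.5% oxygen (6 h, 16 h and 48 h) or to 3% oxygen (6 h only), with all 3 antibodies at each. For the knockouts, WT HKC-8 cells and CRISPR-Cas9 lines without functional HIF-1α (HIF-1α KO) or HIF-2α (HIF-2α KO) were exposed to 0.5% oxygen, again for 16 h, and each knockout line was a single clone. RCC4, a VHL-deficient renal carcinoma line, was used in normoxia, and HepG2, a liver cancer line, after 16 h in 0.5% oxygen. Nothing in the labels says whether replicates came from separate cultures, so a p-value measures the spread between these libraries. The lists give no read depth. List length ranged from 237 to 1793 peaks over the oxygen and time course, from 915 to 8279 over the knockouts and from 911 to 6851 over RCC4 and HepG2. A site absent from a short list may lie just under the caller's limit.

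Sequences of 5 of the sites show what the selection looks like at the level of bases. Each is the 200 bp window in which motifs were searched, on GRCh37 (hg19), plus strand, with every HRE core in capitals in whichever direction it reads. The first 3 are among the 6 members ranked highest by score over the 2 WT HIF-2α lists, and FRMD8 and NTMT1 are among the 6 called in the most libraries outside the selection. They are named by the nearest protein-coding gene.
EDN2 (chr1:41951673-41951872): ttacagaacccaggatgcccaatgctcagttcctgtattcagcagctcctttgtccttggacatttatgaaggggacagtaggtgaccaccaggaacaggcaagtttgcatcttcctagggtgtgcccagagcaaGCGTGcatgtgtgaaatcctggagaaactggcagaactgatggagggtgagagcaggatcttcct
NKD2 (chr5:957933-958132): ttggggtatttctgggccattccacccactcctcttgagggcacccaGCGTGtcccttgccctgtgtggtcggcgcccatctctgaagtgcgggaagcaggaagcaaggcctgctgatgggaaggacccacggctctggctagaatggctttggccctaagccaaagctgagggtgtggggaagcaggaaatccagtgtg
ID2 (chr2:8261206-8261405): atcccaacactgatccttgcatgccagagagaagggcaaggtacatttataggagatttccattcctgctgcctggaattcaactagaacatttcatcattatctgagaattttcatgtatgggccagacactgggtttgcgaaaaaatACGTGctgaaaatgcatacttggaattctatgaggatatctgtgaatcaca
FRMD8 (chr11:65189538-65189737): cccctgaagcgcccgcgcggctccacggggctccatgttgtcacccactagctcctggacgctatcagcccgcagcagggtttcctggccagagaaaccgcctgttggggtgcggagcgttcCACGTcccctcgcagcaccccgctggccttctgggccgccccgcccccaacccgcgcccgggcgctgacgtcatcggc
NTMT1 (chr9:132245205-132245404): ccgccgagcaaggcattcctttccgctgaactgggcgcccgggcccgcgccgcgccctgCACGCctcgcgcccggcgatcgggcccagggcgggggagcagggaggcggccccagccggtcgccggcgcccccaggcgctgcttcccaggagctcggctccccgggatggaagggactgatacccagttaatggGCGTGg
EDN2, NKD2 and NTMT1 hold GCGTG cores, and ID2 and FRMD8 a single ACGTG core. EDN2 encodes the vasoconstrictor peptide endothelin-2, NKD2 an antagonist of Wnt signalling and ID2 an inhibitor of basic helix-loop-helix factors. FRMD8 stabilises the iRhom and ADAM17 shedding complex, and NTMT1 methylates protein N-termini. The named gene's TSS lay 1.42 kb from the EDN2 site, 50.9 kb from NKD2 and 558 kb from ID2. It lay 35.2 kb from the FRMD8 site and 126 kb from NTMT1. Noncoding genes were not used as names, so a nearer noncoding TSS would not show.

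The sites were narrow, distal and of middling strength. Merged intervals ran from 525 to 16862 bp with a median of 1068 bp. The median distance to the nearest protein-coding transcription start site (TSS) was 29.7 kb, with quartiles at 10.5 and 88.5 kb, against 47.3 kb for HIF-2-only sites with AP-1, 35.98 kb for those with neither motif and 24.3 kb for the 878 sites on these chromosomes where both HIF-1α replicates also had a peak. Within 1 kb of a TSS lay 35 sites (4.33%, 95% Clopper-Pearson interval 3.03% to 5.97%), compared with 2.26% of AP-1 sites, 3.97% of sites with neither motif and 11.8% of sites of both isoforms. The interval covers counting error only. The centre fell in an intron at 423 sites, between genes at 363, in a UTR at 14 and in a coding exon at 9. Their median mean rank in the WT HIF-2α lists was 2661, against 2866 for AP-1 sites, 2644 for sites with neither motif and 622.5 for sites of both isoforms, where a low rank is a high score. That rank belongs to the selected contrast and is given as a description.

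The thresholds cut through a continuum. With the window running from 100 bases before the centre base to 99 after it, the members nearest the HRE limit had the middle of their core 98 bp before the centre (HAUS7 and RIC8B), and the nearest sites outside had it 98 bp after the centre, where its last base falls beyond the window (a second GSE1 site and IGFBP3). The members nearest a HIF-1α peak lay 95 bp (MXRA7) and 343 bp (PITRM1) from one, and the nearest sites left out overlapped one by 23 bp (a second LOXL2 site) and 372 bp (GRXCR1). In all, 15 members lay within 1 kb of a WT HIF-1α peak. AP-1 was absent only from the central window. The heptamer occurred elsewhere in the merged interval at 266 members, and at 209 within 400 bp of the centre. Likewise, 818 of the 1160 sites with neither motif had an HRE core somewhere in the merged interval.

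The HRE cores at these sites were richer in ACGTG than cores in flanking windows or promoters, and close to those at other HIF-2α sites. Counting a CACGTG palindrome once, the 200 bp windows held 1003 cores with both neighbouring bases in the window, of which 58.6% were ACGTG and 41.4% GCGTG. In windows of the same length 2 kb to either side of the sites the split was 33.8% and 66.2%, in 35116 RefSeq promoters (GRCh38.p14 table, 150 bases before to 50 after the start) 30.8% and 69.2%, and at the sites of both isoforms with an HRE and no AP-1 it was 60.8% and 39.2%. By windows, ACGTG was in 66.3% of members and in 63.4% of the 191 HIF-2-only sites with AP-1 and an HRE. The base before the core was T in 32.2% of cores, against 20.6% in the flanking windows and 36.3% at sites of both isoforms. TACGTG, which contains ACGTG, was in 21.4% of member windows, 1.48% of flanking windows, 2.18% of promoters and 33.8% of the sites of both isoforms with an HRE and no AP-1. A single core was present at 640 members, 2 or more at 169 (20.9%) and 3 or more at 35. Of the sites of both isoforms with an HRE and no AP-1, 34.3% had 2 or more.

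CACGTG, the E-box palindrome read by MYC, USF and related factors, overlaps the core and was in 13.8% of member windows, 11.6% of the sites of both isoforms with an HRE and no AP-1, 2.47% of flanking windows and 5.51% of promoters. CACAG within 15 bp downstream of a core, the ancillary sequence known from hypoxia-responsive enhancers such as that of EPO, was in 7.29% of members, 6.91% of those sites of both isoforms, 1.05% of flanking windows and 1.18% of promoters. All members hold a core and the flanking windows mostly do not, so shares of motifs that contain or need one differ by the selection, and only the sets that all hold a core compare like with like.

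Motifs of other factors were also searched, on both strands. GGAATG, read by TEAD factors, was in 25.6% of members, 28.5% of HIF-2-only sites with neither motif, 23.9% of those with AP-1, 18.02% of the sites of both isoforms with an HRE and no AP-1, 11.3% of flanking windows and 9.38% of promoters. TGTGGT, read by RUNX factors, was in 18.7%, 17.9%, 20.4%, 14.3%, 15.1% and 8.81% of the same sets in the same order. GGGCGG, read by SP factors, was in 5.69%, 5%, 3.77%, 12.3%, 4.39% and 39.8%. The CRE palindrome TGACGTCA, which shares ACGT with the core, was in 2 members, and TTGCGCAA, read by C/EBP factors, in 0. Forkhead TGTTTAC was in 5.07% of members and 3.65% of flanking windows, and the ETS sequence CGGAAG in 2.35% and 1.92%. CACGCCTGT, a stretch of the Alu repeat that contains a GCGTG core on its other strand, was in 20 members (2.47%) and in 2.22% of flanking windows, and since it holds a core the first share is shaped by the selection. Heptamers with 1 mismatch to AP-1 were in 57.6% of members and 50.7% of flanking windows. A match is a string of letters and does not show binding.

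**Figure D1:**
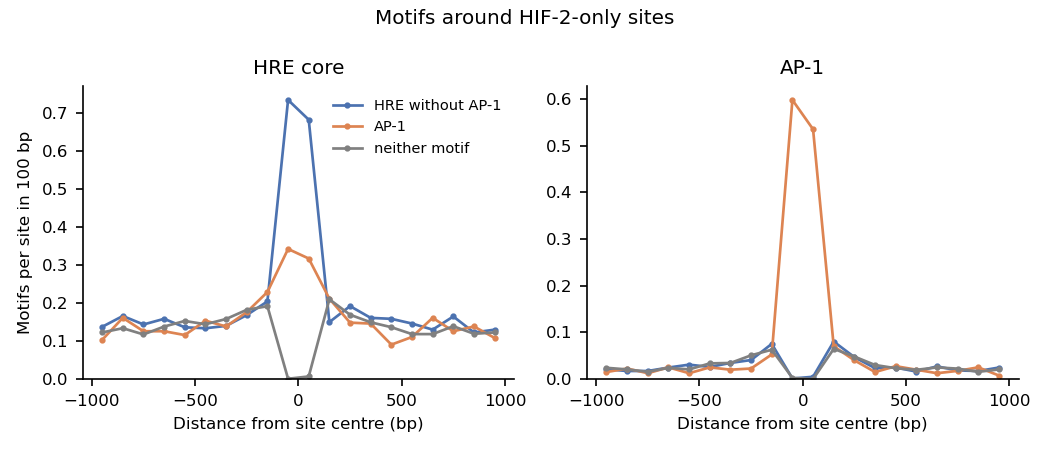
HRE cores (left) and AP-1 heptamers (right) per site in bins of 100 bp, plotted against distance from the site centre in bp, for HIF-2-only sites with an HRE and no AP-1 (blue), with AP-1 (orange) and with neither motif (grey). The 2 central bins are set by the selection, and in the bins from 100 to 200 bp on either side AP-1 rises above its level at 900 to 1000 bp in members too.

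Outside the central window AP-1 was not at its distant level. The members had 0.0754 and 0.0803 AP-1 heptamers per site in the bins 100 to 200 bp before and after the centre, against 0.0210 and 0.0247 in the bins at 900 to 1000 bp. HRE cores stood at 0.733 and 0.681 per site in the 2 central bins and at 0.137 and 0.130 in the most distant ones. The nearest core lay under 20 bp from the centre at 215 members, at 20 to 40 bp at 190, at 40 to 60 bp at 164, at 60 to 80 bp at 139 and at 80 to 100 bp at 101.

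In WT cells HIF-1β was the partner found at nearly all of these sites. It had a peak at 85.0% and 94.1% of members in the 2 libraries, and in both at 669 (82.7%), against 86.2% and 93.7%, and 84.2%, of all 3802 WT HIF-2α sites on these chromosomes. The members therefore sat near the share of HIF-2α sites in general. When the same 809 intervals were moved by 10 kb, 3.34% and 4.203% overlapped a HIF-1β peak. HIF-1β was called in neither WT library at 29 members and in at least 1 at 780 (96.4%, against 95.7% of all sites). HIF-2α in WT cells was the selected measure and had a peak at every member.

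**Figure D2:**
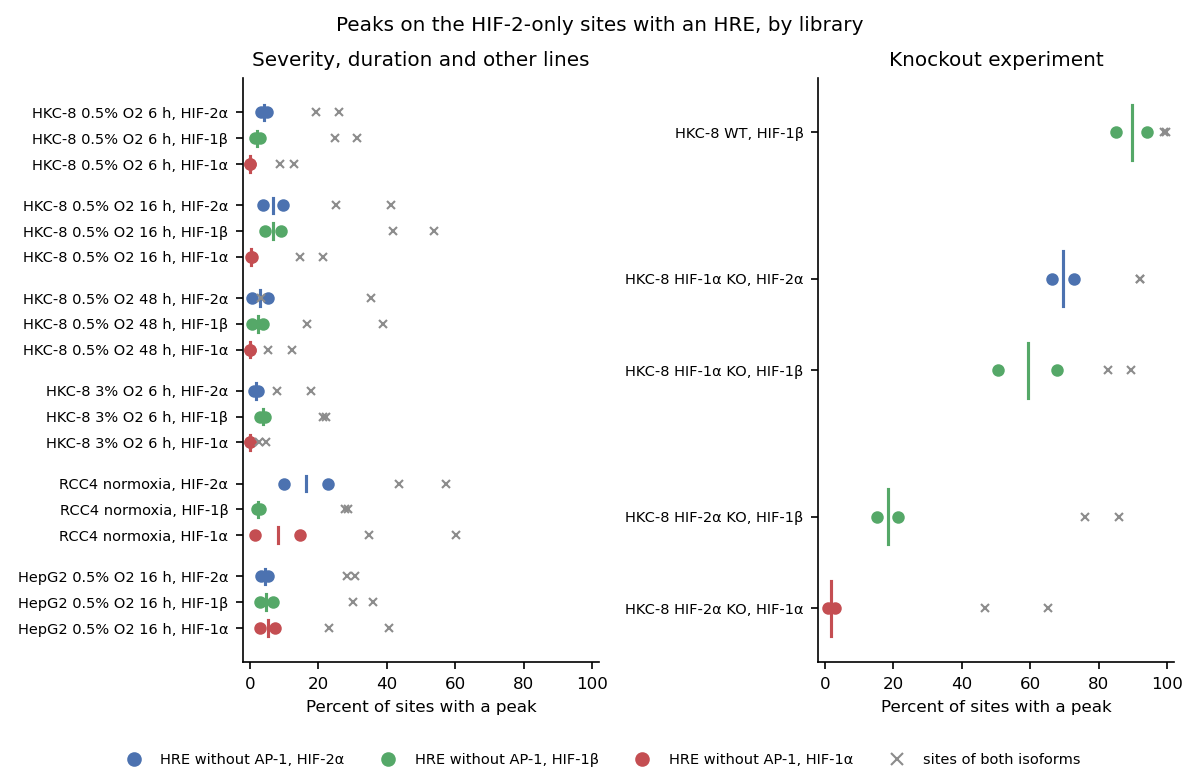
Percent of the 809 sites with a peak in each of the 46 libraries outside the selection (dots coloured by antibody, with the mean of the 2 libraries as a vertical bar), on a linear scale of percent. Grey crosses give the same percentage for the 878 sites of both isoforms, and within each library they lie to the right of that library's dot, although the libraries of a pair can differ enough for a cross to fall between the dots (HIF-2α at 48 h).

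HIF-1β was called at far fewer of these sites in HIF-2α KO cells than in either other genotype. It had a peak there at 21.4% and 15.2% of members, against 37.5% and 31.7% of all 3802 sites. Those 3802 include the sites of both isoforms, where the shares were 85.8% and 76.0%. The other HIF-2-only sites had 15.1% and 14.2% (neither motif) and 13.3% and 15.1% (AP-1), so a low share was not particular to members. The members' mean of 18.3% ± 4.37 (SD, n = 2) compares with 89.6% ± 6.38 in WT cells and 59.2% ± 12.2 in HIF-1α KO cells (50.6% and 67.9%, with 58.5% and 73.1% of all sites, and in both at 389 members, 48.1%, against 55.8%). Each HIF-2α KO library lay below each library of the other genotypes. The differences were −71.3 percentage points from WT and −40.9 from HIF-1α KO, with an exact permutation p of 0.333 for each (two-sided, n = 2 against 2, adjusted p 0.500 over the 12 tests), the smallest that 2 libraries against 2 can give, so they cannot pass the threshold of 0.05. HIF-1β lists were shorter in HIF-2α KO cells (2550 and 2085 peaks) than in HIF-1α KO cells (3387 and 5786) and WT cells (6199 and 8279), and the size of the differences depended on this. With each list cut to its 2085 best peaks, the length of the shortest, HIF-1β was at 16.1% and 15.2% of members in HIF-2α KO, 34.2% and 35.1% in HIF-1α KO and 29.5% and 31.5% in WT cells. The HIF-2α KO libraries were still below all others, with differences of −14.9 percentage points from WT and −19.04 from HIF-1α KO. Shares from cut lists are given for members only, so they do not show whether this drop is particular to members. As a share of each list, members took 6.82% and 5.90% of HIF-1β peaks in HIF-2α KO, 12.1% and 9.56% in HIF-1α KO and 11.1% and 9.24% in WT.

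Site by site, 469 members had HIF-1β in both WT libraries and in neither HIF-2α KO library (58.0%, against 41.6% of all 3802 sites). The 3802 include sites with HIF-1α peaks, so gaps between members and all sites in this paragraph are partly set by the selection. HIF-1β was called in both HIF-1α KO libraries and neither HIF-2α KO library at 238 members (29.4%, against 21.5%), and the reverse at 8 (0.989%, against 1.32%), which lay nearest KLF9, ARHGAP5, KRT17, CDH6, NR2E3, MGRN1, ATG16L1 and BDNF. HIF-1β kept a peak in both HIF-2α KO libraries at 89 members, against 25.7% of all 3802 sites, and in at least 1 at 207 (25.6%, against 43.5%), and by rank the first of these were EDN2, ID2, GSE1, SULT2B1, SPTLC2, FAM107A, HAUS7 and ABHD4.

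HIF-1α was rarely called at these sites in cells without HIF-2α. In HIF-2α KO cells HIF-1α was called at 2.84% and 0.742% of members, with 18.7% and 11.7% of all 3802 sites called. It was called in at least 1 library at 26 members (3.21%, against 19.7%) and in both at 3 (0.371%, against 10.7%), nearest MACROD2, NTMT1 and EMC3. HIF-1α was called in neither HIF-2α KO library at 783 of the 809 members, and at 76 of the 89 with HIF-1β in both. Those HIF-1α lists held only 1271 and 915 peaks. The count among the 89 was not made over all 3802 sites. Since members were chosen for having no WT HIF-1α peak, a share below that of all HIF-2α sites is partly fixed by the choice.

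HIF-2α was called at most members in cells without HIF-1α. It was called at 66.4% and 72.8% of members in HIF-1α KO cells, against 73.4% and 78.4% of all 3802 sites, in both libraries at 511 (63.2%, against 69.6%) and in neither at 194 (24.0%, against 17.7%). These shares went with rank. In the upper 50% of members by mean WT rank HIF-2α was at 81.0% and 85.2%, and in the lower 50% at 51.7% and 60.4%. HIF-1β was also called less often in HIF-1α KO than in WT cells, by 30.3 percentage points (exact permutation p 0.333, n = 2 against 2, adjusted p 0.500), although HIF-1α had no WT peak at these sites. This difference changed with list length. It was −5.25 percentage points with lists cut to 3387 peaks, and it changed sign with lists cut to 2085 peaks, to 4.14 percentage points higher in HIF-1α KO, and with members taken as a percent of the library's peaks, to 0.652 higher.

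The sites that kept HIF-1β in HIF-2α KO cells differed in their core. Among members with 1 core, HIF-1β was called in the 2 HIF-2α KO libraries at 13.9% and 9.41% of the 404 with ACGTG and at 28.8% and 21.6% of the 236 with GCGTG. It was in both libraries at 5.94% (interval 3.84% to 8.71%) and 16.5% (12.02% to 21.9%). These intervals cover counting error over sites only, as both rest on the same 2 libraries of a single clone, and they are not a test. In WT cells HIF-1β did not separate them, with 83.2% and 94.6% for ACGTG and 84.7% and 92.8% for GCGTG, and their median mean ranks were 2749 and 2667. In HIF-1α KO cells HIF-1β was at 45.3% and 60.6% of ACGTG sites and at 56.8% and 75% of GCGTG sites, and HIF-2α at 62.6% and 68.3% against 69.5% and 77.1%. Over all libraries outside the selection, GCGTG sites were called more often than ACGTG sites in 12 of 14 HIF-2α libraries, 16 of 18 HIF-1β libraries and 7 of 14 HIF-1α libraries. The comparison of cores was chosen after its values were seen and has no test. Its shares are given for members only, without those of other HIF-2α sites.

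HIF-1β is also the partner of the aryl hydrocarbon receptor, whose response element contains GCGTG, typically within TTGCGTG. That longer sequence was in the window of 14 members (1.73%), 0.556% of flanking windows and 0.795% of promoters. Among sets that all hold a core, it was in 1.48% of sites of both isoforms without AP-1. In HIF-2-only sites with AP-1 and an HRE it was in 3.66%. HIF-1β was called at 9 and 4 of the 14 members (64.3% and 28.6%) in the HIF-2α KO libraries, against 20.6% and 14.97% of the other 795 members. In both libraries it was at 4 of the 14 (28.6%, interval 8.39% to 58.1%), against 10.7% of the others. Neither HIF-2α KO HIF-1α library had a peak at any of the 14, which allows a share of up to 23.2% by the exact interval. The paper states that its HKC-8 cells received no stimulus to induce the receptor or other such partners. It adds that evidence of HIF-1β without HIF-α was seen under other conditions. The receptor was not measured, and its part in these calls was not tested.

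**Figure D3:**
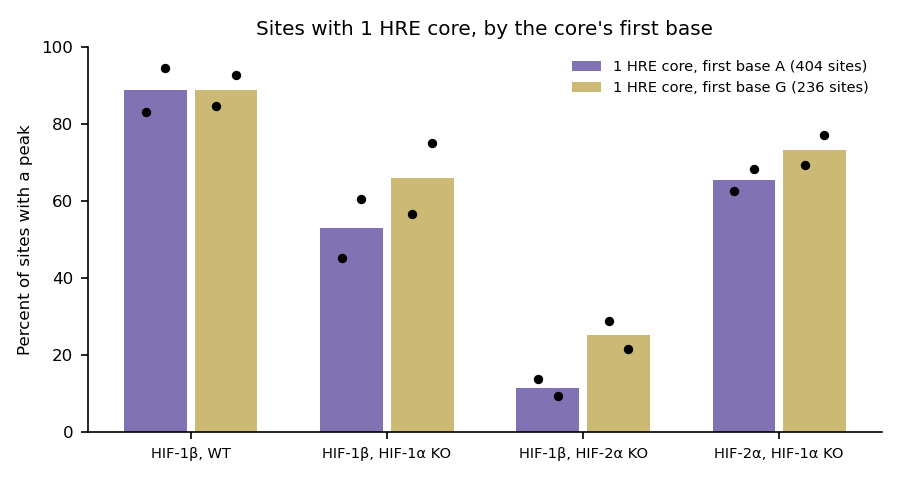
Percent of members with 1 HRE core that had a peak, for cores beginning with A (purple) and with G (yellow), in the 4 library pairs of the knockout experiment outside the selection. Bars are the mean and dots the 2 libraries. The bars are level for HIF-1β in WT cells (88.9% and 88.8%) and apart in HIF-2α KO cells (11.6% and 25.2%).

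Libraries of the oxygen and time course, none used in the selection, were asked whether HIF-2α or HIF-1α was called at these sites. Those of 16 h in 0.5% oxygen repeat the treatment of the WT libraries that chose the members. After 6 h in 0.5% oxygen HIF-2α had a peak at 3.21% and 5.07% of members (7.94% and 11.2% of all 3802 sites), and after 16 h at 3.96% and 9.77% (9.78% and 18%). After 48 h the libraries gave 5.19% and 0.618% (13.2% and 1.13%), and 6 h in 3% oxygen gave 1.24% and 2.35% (3.47% and 7.34%). HIF-1α after 6 h in 0.5% oxygen had 0.124% in each library (3.18% and 2.16%), and after 16 h 0.618% and 0.371% (5.44% and 3.66%). After 48 h HIF-1α was called at 0 members in either library (2.97% and 1.34%), and 6 h in 3% oxygen gave 0.124% and 0 (1.16% and 0.71%). In every condition both HIF-2α libraries lay above both HIF-1α libraries, an order that was part of the selection in WT cells.

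Required in both replicates, HIF-2α was called at 15 members after 6 h, 26 after 16 h, 2 after 48 h and 6 in 3% oxygen (5.76%, 7.71%, 0.973% and 2.63% of all sites). In at least 1 replicate the counts were 52, 85, 45 and 23 (13.4%, 20.1%, 13.3% and 8.18% of all sites). HIF-1α was in both replicates at 0, 2, 0 and 0 members (1.87%, 3.05%, 1.08% and 0.473% of all sites). It was in at least 1 at 2, 6, 0 and 1 members (3.47%, 6.05%, 3.24% and 1.39% of all sites). The members were thus called less often than HIF-2α sites in general, which include the higher ranked sites of both isoforms.

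The mean difference was 3.75 percentage points (3.92% for HIF-2α, 0.170% for HIF-1α), and labels permuted within each condition gave an exact permutation p of 0.00154 (16 libraries, two-sided test). This is the lowest value that 1296 arrangements allow, and the adjusted p was 0.00926. These are libraries the selection did not use, but the isoforms' order was part of it in WT libraries of the same line. The 16 h libraries also repeat the selecting treatment. The direction was therefore favoured in advance, and this p is not independent evidence of isoform preference at these sites. Left out in turn, 15 of the 16 libraries kept the adjusted p under 0.05, and without replicate 2 of HIF-1α at 16 h the difference was 3.72 percentage points with an adjusted p of 0.0556. Of the members, 121 had a HIF-2α peak in at least 1 of the 8 HIF-2α libraries (14.96%, against 26.5% of all 3802 sites), and 89 without replicate 2 of 16 h. HIF-1α had one in at least 1 of its 8 libraries at 8 members (0.989%, against 7.05%), nearest NTMT1, OSMR, AUTS2, FRMD8, SULF2, SERTAD2, SLC28A3 and FOXQ1. Within a condition, 31 members had HIF-2α in both replicates and HIF-1α in neither (3.83%, against 7.84%), and 0 the reverse (against 1.24%), which allows up to 0.455% by the exact interval.

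HIF-1β in these conditions had a peak at 1.48% and 2.84% of members after 6 h in 0.5% oxygen (7.21% and 10.1% of all sites) and at 4.57% and 9.15% after 16 h (13.7% and 19.9%). After 48 h it had 3.83% and 0.742% (12.7% and 4.68%), and 6 h in 3% oxygen gave 3.09% and 4.45% (7.47% and 9.07%). In both replicates HIF-1β was called at 7, 24, 2 and 12 members (5.58%, 11.7%, 3.89% and 5.18% of all sites). It was in at least 1 at 28, 87, 35 and 49 members (11.8%, 21.9%, 13.4% and 11.4% of all sites). Shifted by 10 kb, the members met a peak at 0.124% to 0.742% of positions over these 24 libraries. HIF-1α lay above its own shifted value in 1 of 8 libraries, replicate 1 of 16 h (0.618% against 0.494%). Members were chosen for having no WT HIF-1α peak and the shifted intervals were not. A HIF-1α share at or below the shifted one is therefore partly set by the selection.

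No difference between oxygen levels or times passed its test. Averaged over HIF-2α and HIF-1β, 3% oxygen differed from 0.5% at 6 h by −0.371 percentage points (exact permutation p 0.778, 8 libraries, adjusted p 0.848), 48 h from 6 h by −0.556 (exact permutation p 0.722, adjusted p 0.848) and 16 h from 6 h by 3.71 (exact permutation p 0.111, adjusted p 0.267). The smallest p these designs allow is 0.0556. Both 16 h HIF-1β libraries lay above both 6 h HIF-1β libraries, and the HIF-2α libraries overlapped. The second HIF-2α library of 48 h had 237 peaks in all, and without it the difference for 48 h was 0.587.

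In other lines few of the sites were called. In RCC4 HIF-2α had a peak at 22.99% and 9.89% of members (32.7% and 20.3% of all 3802 sites), HIF-1α at 14.6% and 1.61% (26% and 10.7%) and HIF-1β at 2.84% and 2.10% (8.68% and 8.13%). The RCC4 HIF-1β lists held 911 and 1305 peaks, against 4317 and 2990 for HIF-2α. They are labelled repeats 2 and 3, with inputs apart from those of the HIF-α libraries, so their shares are not directly comparable. In HepG2 the shares were 3.34% and 5.32% for HIF-2α (10.6% and 11.3%), 2.97% and 7.42% for HIF-1α (8.26% and 16.1%) and 6.80% and 2.84% for HIF-1β (14.5% and 10%). HIF-2α minus HIF-1α was 3.74 percentage points over both lines (exact permutation p 0.556, 8 libraries, adjusted p 0.741), with 8.34 in RCC4 and −0.865 in HepG2, and the isoforms' libraries overlapped in both lines. The first RCC4 HIF-1α list held 5680 peaks, and the second 2120. Without the first the difference over both lines was 6.98, and without the second 0.494. Without the first RCC4 HIF-2α list it was 0.464, and without the second 7.01.

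In RCC4 more members had HIF-2α than HIF-1α in both replicates. HIF-2α was in both replicates at 75 members (9.27%, against 18.4% of all sites) and in at least 1 at 191 (23.6%, against 34.6%). HIF-1α was in both at 11 (1.36%, against 9.73%) and in at least 1 at 120 (14.8%, against 27%), or 13 without its first library. HIF-1β was in both at 12 (1.48%, against 6.08%) and in at least 1 at 28 (3.46%, against 10.7%). HIF-2α in both and HIF-1α in neither held at 26 members (3.21%, against 3.55%), led by LOXL2, SMYD3, FAM107A and TSN, and the reverse at 1 (0.124%, against 0.368%), nearest RFPL3. Of the 118 members with HIF-1α in the first RCC4 library, 96 also had HIF-2α in at least 1 RCC4 library. In HepG2 20 members had HIF-2α in both replicates (2.47%, against 7.94%) and 50 in at least 1 (6.18%, against 14%). HIF-1α was in both at 22 (2.72%, against 7.81%) and in at least 1 at 62 (7.66%, against 16.6%). HIF-1β was in both at 22 (2.72%, against 9.18%) and in at least 1 at 56 (6.92%, against 15.3%). Of the 20, HIF-1α was in at least 1 HepG2 library at all and in both at 13. No member showed HIF-2α in both HepG2 replicates and HIF-1α in neither, or the reverse (0.0263% and 0.158% of all sites). The first HepG2 HIF-2α list shared 47.9% of its peaks with the second HIF-1α list and 25.3% with the second HIF-2α list when lists were cut to equal length, so the HepG2 libraries did not group by their labelled antibody.

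HIF-2α was called in both replicates of both lines at 8 members (0.989%, against 4.1% of all 3802 sites), nearest UQCRHL, RASSF10, TMEM241, CEACAM16, DHFR2, OSMR, FRMD8 and SERTAD2, in RCC4 and not HepG2 at 67 (8.28%, against 14.3%), and in HepG2 and not RCC4 at 12 (1.48%, against 3.84%), led by ID2 and AZIN1. It was in no RCC4 or HepG2 library at 591 members (73.1%, against 60%). Without HepG2 that count was 618 and without RCC4 759. The 35 promoter members within 1 kb of a TSS were called more often than the other 774, at a mean of 28.6% against 15.9% for RCC4 HIF-2α and 15.7% against 3.81% for HepG2 HIF-2α, and in 13 of 14 HIF-2α libraries. Promoter members did not rank higher in WT cells (median mean rank 3177 against 2651).

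Counted over all 46 libraries outside the selection, a member had a peak in a median of 6, with quartiles at 3 and 8 and a range of 0 to 31. It was a median of 2 of 14 for HIF-2α, 4 of 18 for HIF-1β and 0 of 14 for HIF-1α. HIF-1α was in none of its libraries at 632 members, HIF-2α at 171 and HIF-1β at 25, and 13 members had no peak of any antibody (61.5%, 14.8%, 3.5% and 1.92% of all 3802 sites). Members with 2 or more cores were called more often than those with 1 in 13 of 14 HIF-2α libraries and 17 of 18 HIF-1β libraries, and their median mean rank was better (2403 against 2712). The position of the core made no such difference, as members with the core under 20 bp from the centre were ahead of those with it at 60 bp or more in 7 of 14 HIF-2α and 10 of 18 HIF-1β libraries.

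Members were also set against the other HIF-2-only sites, library by library. HIF-1β was called more often at members than at sites with neither motif in 16 of 16 libraries (HIF-2α KO apart), by a mean of 2.69 percentage points (21.4% against 18.7%, exact permutation p 3.05e-05 by sign flips within libraries, two-sided, adjusted p 0.000366), the smallest p the design allows. Libraries of a group are replicates, and with each group averaged the exact permutation p by sign flips was 0.00781 (adjusted p 0.0469). In WT cells the shares were 85.0% and 94.1% for members and 74.2% and 88.1% for sites with neither motif. For HIF-2α members exceeded sites with neither motif in 6 of 14 libraries, by 0.0648 points (exact permutation p 0.914, adjusted p 0.914). Compared with AP-1 sites, members were lower by 1.06 points for HIF-2α (exact permutation p 0.0326, adjusted p 0.130, higher in 4 of 14 libraries) and higher by 0.899 for HIF-1β (exact permutation p 0.0446, adjusted p 0.134, higher in 11 of 16). Neither passed adjustment, and the sign of both depended on settings given in the closing section. In the HIF-2α KO libraries, kept out of that test, HIF-1β was at 21.4% and 15.2% of members, 15.1% and 14.2% of sites with neither motif and 13.3% and 15.1% of AP-1 sites. In RCC4, HIF-2α was at 28.4% and 13.1% of AP-1 sites against 22.99% and 9.89% of members.

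**Figure D4:**
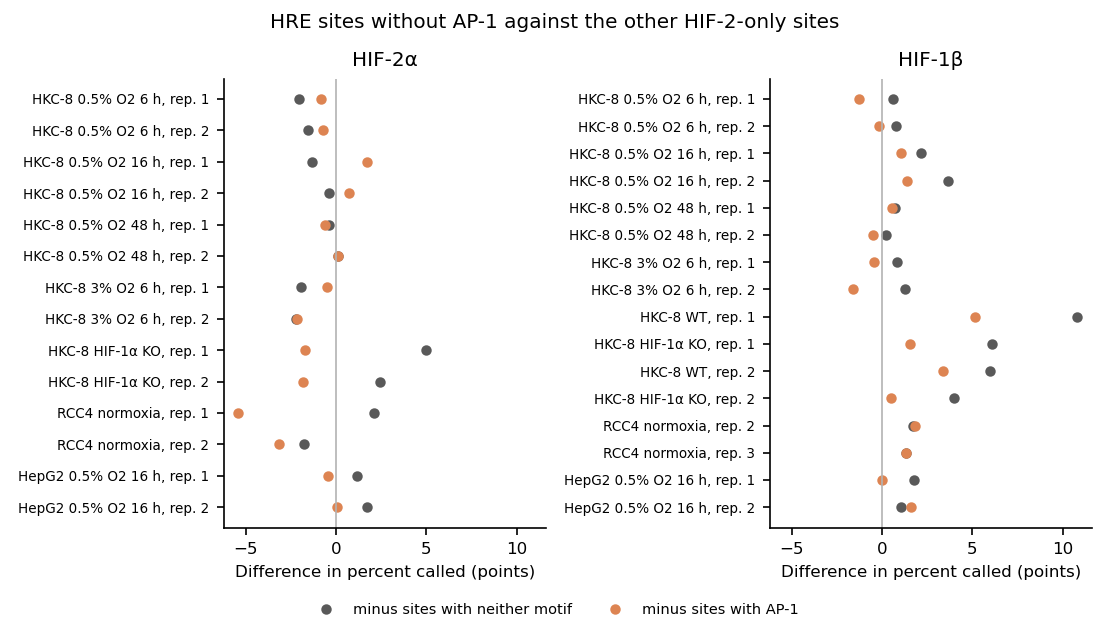
Percent of members called minus percent of the other HIF-2-only sites called, in percentage points, for each HIF-2α library (left) and HIF-1β library (right) outside the selection. Grey dots subtract sites with neither motif and orange dots sites with AP-1. All 16 grey HIF-1β dots lie right of 0, and HIF-2α dots lie on both sides.

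Named sites illustrate how members varied. The naming rule took 6 by WT rank and 6 by the number of libraries outside the selection, with NKD2 and ID2 in both sets. At LOXL2, an enzyme that cross-links collagen and elastin, the site lay in an intron 3.67 kb from the TSS, where ENTPD4 is also annotated, and had HIF-2α in both HIF-1α KO and both RCC4 libraries, in 1 library at 6 h, and in none of HepG2. The EDN2 site, 1.42 kb upstream of the TSS, had HIF-2α in both HIF-1α KO libraries, in 1 of RCC4 and in 1 each of 6 h and 48 h, and kept HIF-1β in both HIF-2α KO libraries. SLC5A11 encodes a sodium-coupled inositol transporter. Outside the selection, the site nearest it and the GSE1 site had HIF-α peaks only in HIF-1α KO cells, where HIF-2α was in both libraries.

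NKD2, 50.9 kb upstream of the gene between genes, had peaks in 26 of 46 libraries, with HIF-2α in both replicates of 6 h, 16 h, HIF-1α KO and RCC4, HIF-1β in both of RCC4, and HIF-1α only in 1 RCC4 library. ID2, 558 kb from its gene, had 21, with HIF-2α in both replicates of 16 h, HIF-1α KO and HepG2, none in RCC4, and HIF-1α in both HepG2 libraries. OSMR and FRMD8 had peaks in 31 of 46 libraries each and NTMT1 in 30. The OSMR site (chr5:38845297-38847249), 0.159 kb from the start of the oncostatin M receptor gene, had HIF-2α in 13 of 14 libraries and HIF-1α in 5 of 14, including both at 16 h. The NTMT1 site had HIF-2α in 9 of 14 and HIF-1α in 6 of 14, including both at 16 h, both of HIF-2α KO and both of RCC4, and HIF-2α in none of HepG2. FRMD8 had HIF-2α in 11 and HIF-1α in 4. AZIN1, whose product regulates polyamine synthesis, had peaks in 26, with HIF-2α in both HepG2 libraries and HIF-1α in 2 of 14.

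**Figure D5:**
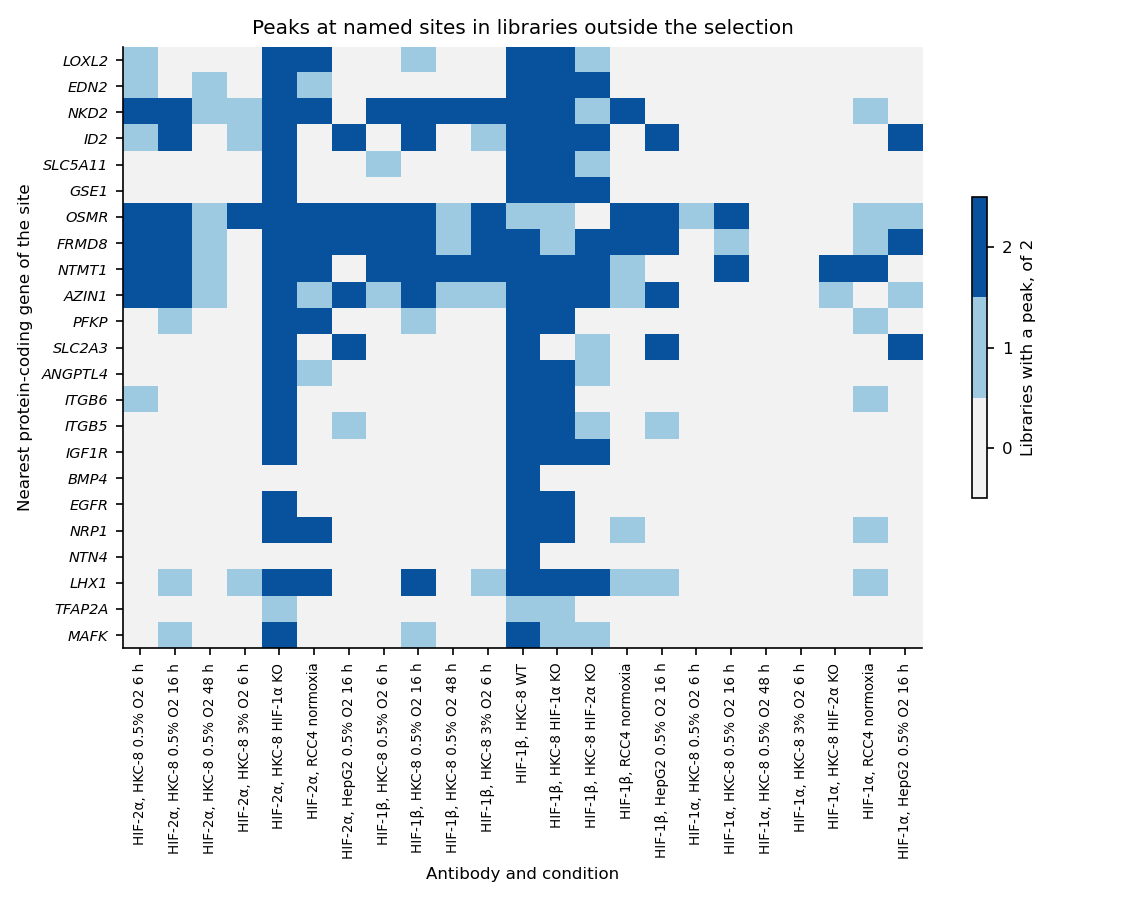
Number of libraries with a peak (0, 1 or 2, by shade) at sites chosen by the naming rule (rows, by nearest protein-coding gene) in each antibody and condition outside the selection (columns). Most rows are dark for HIF-2α in HIF-1α KO cells and for HIF-1β in WT cells and pale for HIF-1α. OSMR, FRMD8 and NTMT1 are dark for HIF-2α and HIF-1β at 6 and 16 h in 0.5% oxygen.

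The members' nearest protein-coding genes numbered 708, of which 93 had 2 or more members and KAZN, P3H2 and SH3BP4 had 4 each. Nearest is a label of position and not evidence of regulation. By lists of genes known for hypoxia or kidney biology, 2 members lay nearest a gene of glycolysis (0.247%, list of 22 genes), against 15 of the 878 sites of both isoforms (1.71%). Genes often named as HIF-2 targets were nearest 8 members (0.989%) and 24 sites of both isoforms (2.73%), genes of matrix and adhesion 7 (0.865%) and 13 (1.48%), growth factors and receptors 10 (1.24%) and 15 (1.71%), axon guidance 5 (0.618%) and 7 (0.797%), kidney lineage factors 6 (0.742%) and 5 (0.569%), the AP-1 family 4 (0.494%) and 3 (0.342%) and oxygen sensing 2 (0.247%) and 4 (0.456%). Histone demethylases and carbonic anhydrase and pH genes were nearest 0 members and 3 and 4 sites of both isoforms. For HIF-2-only sites with neither motif and with AP-1, glycolysis had 0.172% and 0%, and HIF-2 targets 1.03% and 0.251%. Matrix had 1.55% and 1.01%, growth factors 0.862% and 1.26%, and axon guidance 0.172% and 2.01%. Kidney lineage had 0.345% and 0%, the AP-1 family 0.259% and 0.503%, and oxygen sensing 0.517% and 0.503%. No list was tested, as the sites were chosen with results known.

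The core of the HRE at list members within 50 kb of their gene is shown with 10 bases to either side, on GRCh37 and on the strand on which it reads RCGTG (R is A or G), with the core in capitals, so that its neighbours can be compared.
PFKP (chr10:3149761-3149785, plus strand): gagtggccacGCGTGttctttggat
SLC2A3 (chr12:8113504-8113528, plus strand): gcaagtgcagACGTGagttgcagat
ANGPTL4 (chr19:8432529-8432553, plus strand): gagcctccagACGTGctcaacgcca
ITGB6 (chr2:161083927-161083951, plus strand): gagggtgactACGTGgttctgttag
ITGB5 (chr3:124556703-124556727, plus strand): gggaagtagaGCGTGcagcgctgcc
IGF1R (chr15:99440331-99440355, minus strand): ggaataaatgACGTGccaatggcta
EGFR (chr7:55154353-55154377, minus strand): agcgacctaaGCGTGgccacctctg
NRP1 (chr10:33625056-33625080, minus strand): tccccaggagGCGTGtgaccttttc
LHX1 (chr17:35258992-35259016, minus strand): aggggcccagACGTGaccagacggt
TFAP2A (chr6:10426254-10426278, minus strand): cgggttgactACGTGgccagagggt
MAFK (chr7:1577180-1577204, plus strand): tcaccccaggACGTGgtgcgaagga
ITGB6 and TFAP2A carry TACGTG followed by G. PFKP, EGFR, NRP1 and ITGB5 have GCGTG as the core nearest the centre, and the others ACGTG.

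The glycolysis sites were called differently in the lines. PFKP, a phosphofructokinase isoform, had an intronic site 2.87 kb from its TSS with HIF-2α in both RCC4 libraries and in 1 library of 16 h, and none in HepG2. SLC2A3, which encodes the glucose transporter GLUT3, had a site in an intron 24.7 kb from the TSS with HIF-2α and HIF-1α each in both HepG2 libraries and in none of RCC4. ANGPTL4, an inhibitor of lipoprotein lipase, had an intronic site with HIF-2α in both HIF-1α KO libraries and in 1 RCC4 library, and it lay 1758 bp from a WT HIF-1α peak. Among the other targets, the CDCP1, EGLN3, CITED2 and NDRG1 sites had no HIF-2α peak in any library outside the selection, and ADORA2A had it in 2.

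Of the integrin genes, ITGB6 had HIF-2α in both HIF-1α KO libraries and in 1 library of 6 h, and ITGB5 in both HIF-1α KO libraries and in 1 HepG2 library. Among libraries outside the selection, the receptor genes IGF1R and EGFR had HIF-2α in both HIF-1α KO libraries and in no other. IGF1R kept HIF-1β in both HIF-2α KO libraries, while EGFR had it in neither. NRP1, a co-receptor for semaphorins and VEGF, had an intronic site 0.191 kb from its TSS with HIF-2α in both RCC4 libraries. The nearer BMP4 site and NTN4 had HIF-1β in both WT libraries and no other peak outside the selection. LHX1, a LIM homeobox factor of kidney development, had a site 35.8 kb upstream with 3 cores and peaks in 18 of 46 libraries, among them HIF-2α in both RCC4 libraries and HIF-1β in both HIF-2α KO libraries. The nearer TFAP2A site had a peak in 3 of 46 libraries and MAFK, a small MAF protein that partners AP-1-related factors, 8.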

How the data were processed

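The deposited files are peak lists, 1 per ChIP-seq library. Per the study's methods and the submitters' processing notes, the authors trimmed reads with Trim Galore 0.3.3, aligned them to GRCh37 with BWA, filtered by mapping quality with SAMtools 0.1.19, removed black-listed regions with bedtools 2.17.0, marked duplicates with Picard 1.106 and called peaks in each library with MACS in control mode (version not given in the sources used here). Each deposited peak carries the authors' MACS score, read as −10 times log10 of the peak p-value, with a minimum of 50 in every list. Scores ranked peaks within a list and were not compared between lists. No list gives depth, and 16 input samples were not analysed here.

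Members were found with Python 3.11.15, pysam 0.24.0 and samtools 1.23.1 on GRCh37, with overlap of at least 1 bp as a call and GENCODE 44 lifted to GRCh37 for TSSs. The members and gene lists were chosen with earlier results of these data known. Percent of members called per library was compared by exact permutation within condition, line or antibody, and by exact sign flips within libraries (scipy 1.17.1), two-sided, with Benjamini-Hochberg adjustment over 12 tests and a threshold of 0.05. The scripts were tested on simulated lists. The sites named were the 6 members best ranked by WT HIF-2α score, the 6 called in the most libraries, up to 3 per gene list within 50 kb and the 2 nearest each threshold. Other sites named were chosen after their values were seen. Alternatives changed the score minimum, overlap, motif window, list length, denominator, WT replicate, replicate block and libraries left out. A few sites that these rules name are not reported here.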

Additional observations from a re-analysis of the deposited data

Results flagged for a closer look

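At 6 h, 3% oxygen minus 0.5% oxygen went opposite ways for the 2 antibodies. For HIF-2α the share of members called differed by −2.35 percentage points, with both 3% libraries (1.24% and 2.35%) below both 0.5% libraries (3.21% and 5.07%). For HIF-1β it differed by 1.61 percentage points, with both 3% libraries (3.09% and 4.45%) above both 0.5% libraries (1.48% and 2.84%). The difference between the antibodies was not tested. The HIF-2α lists held 558 and 977 peaks in 3% oxygen and 1417 and 1493 in 0.5%, and the HIF-1β lists 1205 and 944 and 1284 and 1271. As a percent of each list, HIF-2α peaks on members were 2.15% and 1.94% in 3% oxygen and 1.98% and 2.95% in 0.5%, and HIF-1β peaks 2.07% and 3.81% and 1.01% and 1.81%. On that scale the HIF-2α libraries of both oxygen levels overlapped, and both HIF-1β libraries of 3% oxygen still lay above both of 0.5%.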

How the results depend on the processing

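HIF-2α minus HIF-1α over the severity and duration libraries kept its direction and passed the threshold under 12 of 12 alternatives (1.00 to 5.93 percentage points). The selection favoured that direction. Members minus sites with neither motif for HIF-1β kept its direction and passed under 11 of 11 (1.01 to 5.70). The causes of the changes that follow were not tested. Members minus AP-1 sites for HIF-2α turned to 0.425 with scores of at least 100, 0.188 with lists of equal length, 0.259 with a 50 bp motif window, and 0.977 or 0.3002 with sites of WT replicate 1 or 2 alone. For HIF-1β that difference passed the threshold at 2.02 with scores of at least 100, 1.98 with the 50 bp window and 2.51 or 2.04 with replicate 1 or 2 alone, and turned to −1.03 in the upper 50% by rank. Members minus sites with neither motif for HIF-2α passed at 2.91 and 1.99 with replicate 1 or 2 alone and turned to −0.228 with equal lists and −1.18 in the upper 50%. As a percent of the library's peaks, 3% minus 0.5% oxygen turned to 0.560, 48 h minus 6 h to 0.371 and HIF-1α KO minus WT to 0.652. The number of members was 537 with the 50 bp window, 527 with scores of at least 100 and 1820 with sites of WT replicate 2 alone. The share near a TSS was 15.2% within 5 kb and 12.5% within 1 kb of any annotated TSS.

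Chosen after seeing the data, HIF-2α against AP-1 sites within rank quartiles passed at −1.84, HIF-1β against AP-1 sites with an HRE turned to −1.12, RCC4 and HepG2 without RCC4 gave −0.865, and 48 h minus 6 h without libraries under 600 peaks gave 0.587. Leaving out 1 library gave 3.03 to 4.48 for HIF-2α minus HIF-1α (3.72 and an adjusted exact permutation p of 0.0556 without 16 h HIF-1α replicate 2), 0.464 to 7.01 for RCC4 and HepG2, −0.834 to 0.0927 for 3% minus 0.5%, −1.70 to 0.587 for 48 h minus 6 h and 2.26 to 5.16 for 16 h minus 6 h. Against sites with neither motif HIF-2α ran from −0.315 to 0.241 and HIF-1β from 2.14 to 2.85. Against AP-1 sites HIF-2α ran from −1.27 to −0.721 (passing at −1.27 without 16 h HIF-2α replicate 1) and HIF-1β from 0.616 to 1.06. HIF-2α KO minus HIF-1α KO, HIF-2α KO minus WT and HIF-1α KO minus WT ran from −49.6 to −32.3, −75.8 to −66.7 and −39.0 to −21.7. Their size depended far more on list length, at −19.04, −14.9 and −5.25 with lists of equal length and −4.48, −3.83 and 0.652 as a percent of the library's peaks, and with lists of all 3 genotypes of equal length, chosen after seeing the data, the third turned to 4.14.

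Same-numbered replicates correlated at over 0.1 in 7 of 28 pairs of groups, among them all 3 pairs at 48 h, and under −0.1 in 2 (−0.195 to 0.353, median 0.0476), so the numbers were not taken to pair the samples. With the replicate number as a replicate block, or each group averaged for the sign flips, the differences were the same by construction and no call changed. HIF-2α minus HIF-1α stayed at 3.75 with an adjusted exact permutation p of 0.0469. The crossed pairing for 48 h against 6 h HIF-2α, chosen after seeing the data, changed no call. Depth is unknown, so short lists limit every share.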
